A study of Mus musculus with 24 samples.

Results

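The genes described here are 10 regulators of cell survival and apoptosis: Bcl2a1b, Bcl2a1d, Mcl1, Bcl2l1, Bcl2l11, Pmaip1, Cflar, Birc3, Ier3 and Fas. Their probes were taken by gene symbol from the annotation of the array platform. Of 25697 probes, 18 carried these symbols and covered 9 of the 10 genes, with none named Bcl2a1b. For 8 genes, 15 probes lay above a floor of 6.45 log2 units on all 3 arrays of at least 1 group. The floor is the 99th percentile of 1305 olfactory and vomeronasal receptor probes, genes that are normally silent in macrophages. Both probes of Cflar, which encodes the caspase-8 inhibitor c-FLIP, lay between 5.41 and 5.93 on all 24 arrays, below the floor, so no change is given for it.

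RNA came from bone marrow macrophages of female C57BL/6 mice aged 6 weeks and was hybridised to 24 Illumina bead arrays. The cells had been exposed to lipopolysaccharide (LPS), a component of the outer membrane of many bacteria, for 1, 2 or 4 h, or not exposed (0 h). At each time there was a control group and a group labelled BET treat, which the title describes as a bromodomain inhibitor, called inhibitor below. Each of the 8 groups held 3 arrays, replicates 1 to 3, described as biological in the design text. BET proteins are chromatin readers that bind acetylated histones and help transcription proceed. The sources used here do not give the compound, its dose or its timing, the LPS dose, what the control cells received or how the macrophages were grown from marrow.

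Apoptosis through mitochondria is set by the Bcl2 family: survival proteins such as A1 (Bcl2a1), Mcl1 and Bcl-xL (Bcl2l1) hold back the pore formers Bax and Bak1, and BH3-only proteins such as Bim (Bcl2l11) and Noxa (Pmaip1) occupy the survival proteins. Death receptors such as Fas start the other route through caspase-8, which c-FLIP blocks, while c-IAP2 (Birc3) is a ubiquitin ligase that keeps death receptor complexes on the survival side. In macrophages, several survival genes are known NF-kB targets that LPS switches on, among them Bcl2a1, Birc3 and Ier3, an immediate early gene.

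The cells carried macrophage transcripts: all 7 macrophage markers with a probe, of 9 listed, lay above the floor on all 24 arrays. All 5 T cell markers with a probe were below it on every array. So were the B cell markers Cd79a, Ms4a1 and Pax5, and the granulocyte markers S100a9, Camp, Ngp and Ltf. The granulocyte marker S100a8, the dendritic cell marker Itgax and the stromal marker Dcn were above it on all. The B cell, granulocyte, dendritic cell, stromal and erythroid lists each also held at least 1 marker above it on some arrays only. The summed linear level of the macrophage markers was 53467 to 59506 in 0 h control arrays and 62919 to 70357 in 4 h control arrays. It was 55036 to 57914 in 0 h inhibitor arrays and 60656 to 70546 in 4 h inhibitor arrays. Their part in the LPS responses was not tested. In bulk RNA, fewer cells of a type and less RNA per cell cannot be told apart. Arrays of replicate 1 lay 0.199 to 0.246 log2 units (root mean square over features) from their group means, against 0.116 to 0.185 for the others.

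The A1 genes are near-identical copies on mouse chromosome 9, which bears on how the Bcl2a1d probe can be read. Over 250 aligned bases around their start sites, Bcl2a1b and Bcl2a1d were 98.8% identical. The upstream stretches below (RefSeq, GRCm38.p6, 5′ to 3′ on the gene's strand) are Bcl2a1b, chr9:89199023-89199228 on the plus strand, and Bcl2a1d, chr9:88731851-88732050 on the minus strand. Capitals mark the bases that differ or have no partner in the other copy, 8 in Bcl2a1b and 2 in Bcl2a1d.
Bcl2a1b: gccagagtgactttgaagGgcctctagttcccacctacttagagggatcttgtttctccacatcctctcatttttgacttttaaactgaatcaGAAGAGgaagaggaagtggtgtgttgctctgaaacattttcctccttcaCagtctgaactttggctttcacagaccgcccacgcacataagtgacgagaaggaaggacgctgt
Bcl2a1d: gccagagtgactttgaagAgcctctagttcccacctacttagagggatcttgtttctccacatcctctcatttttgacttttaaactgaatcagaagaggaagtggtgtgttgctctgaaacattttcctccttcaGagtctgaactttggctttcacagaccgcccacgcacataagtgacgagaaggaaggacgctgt
Both carry TGAATCA, a match to TGANTCA, the pattern searched for AP-1, which takes any middle base and is looser than the AP-1 consensus. A probe for 1 copy may also bind the others, so the values below are those of the probe named Bcl2a1d and uncertain as to copy. Probe sequences were not used here.

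After LPS, control cells raised genes of both functions: the BH3-only genes Bcl2l11 and Pmaip1 by 1 h, and the A1 probe, Birc3 and Fas by 2 h. Between treatments, 3 members were called, with Ier3 higher and the Bcl2a1d probe and Fas lower in inhibitor cells. The fit was limma's moderated test over 8203 features (8 group means, all 24 arrays), with changes as log2 differences ± standard error (SE) of 3 arrays against 3 and a call at an adjusted p under 0.05. The p-values rest on the spread between arrays within groups, which in this fit includes any shift shared by replicate number. Of the 8 measured genes, 3 were called in control cells at 1 h (Bcl2l11, Pmaip1 and Ier3, all higher), against 3.21% of all features (2.15% higher and 1.06% lower). With the replicate number entered as a block there were 5, all higher, against 6.31%. By 2 h, 7 of 8 were called, 5 higher (the Bcl2a1d probe, Bcl2l11, Pmaip1, Birc3 and Fas) and 2 lower (Mcl1 and Bcl2l1), where 25.2% of features were called, 10% higher and 15.2% lower. By 4 h, 5 of 8 were called, 3 higher (the Bcl2a1d probe, Birc3 and Fas) and 2 lower (Mcl1 and Bcl2l1), where 52.6% of features were called, 19.8% higher and 32.7% lower, so the members' share was close to the background.

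The members' median change after LPS in control cells was 0.56 at 1 h, 0.80 at 2 h and 0.16 at 4 h, beside -0.03, -0.08 and -0.14 over all features. The arrays of 6, 7 and 5 of the 8 members did not overlap those of 0 h at these times, against 17.1%, 39.4% and 58.6% of features. In inhibitor cells, LPS called 3 members at 1 h, all higher (background 3.21%, with 1.73% higher and 1.48% lower). It called 4 at 2 h, 3 higher and 1 lower (17.9%, with 7.4% higher and 10.5% lower), and 4 at 4 h, all higher (46.4%, with 19.7% higher and 26.7% lower). There the arrays of 5, 4 and 5 members did not overlap those of 0 h, against 15.8%, 31.3% and 51.4% of features.

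Between treatments, limma called 0 of 8 members at 0 h, and 0 at an unadjusted p under 0.05, where 0.158% of features were called. At 1 h it called 2 (Ier3 higher, the Bcl2a1d probe lower) against 1.3%, of which 0.524% were higher and 0.78% lower. At 2 h it called only Fas, lower, against 6.94% (2.72% higher and 4.22% lower). At 4 h it called 3, with Ier3 higher and the Bcl2a1d probe and Fas lower, against 22.8% (12.6% higher and 10.2% lower). Once the replicate number was entered as a block, 5 of 8 were called at 2 h, where 14.1% of features were. The added genes were Bcl2a1d, Birc3, Mcl1 and Ier3. Arrays of the treatments did not overlap for 0 members at 0 h and for 4 at each of 1, 2 and 4 h, against 5.45%, 11.7%, 22.1% and 35% of features. The members' median difference was -0.09, -0.04, -0.26 and -0.06 at 0, 1, 2 and 4 h, beside -0.00, 0.01, 0.04 and 0.04 over all features.

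**Figure D1:**
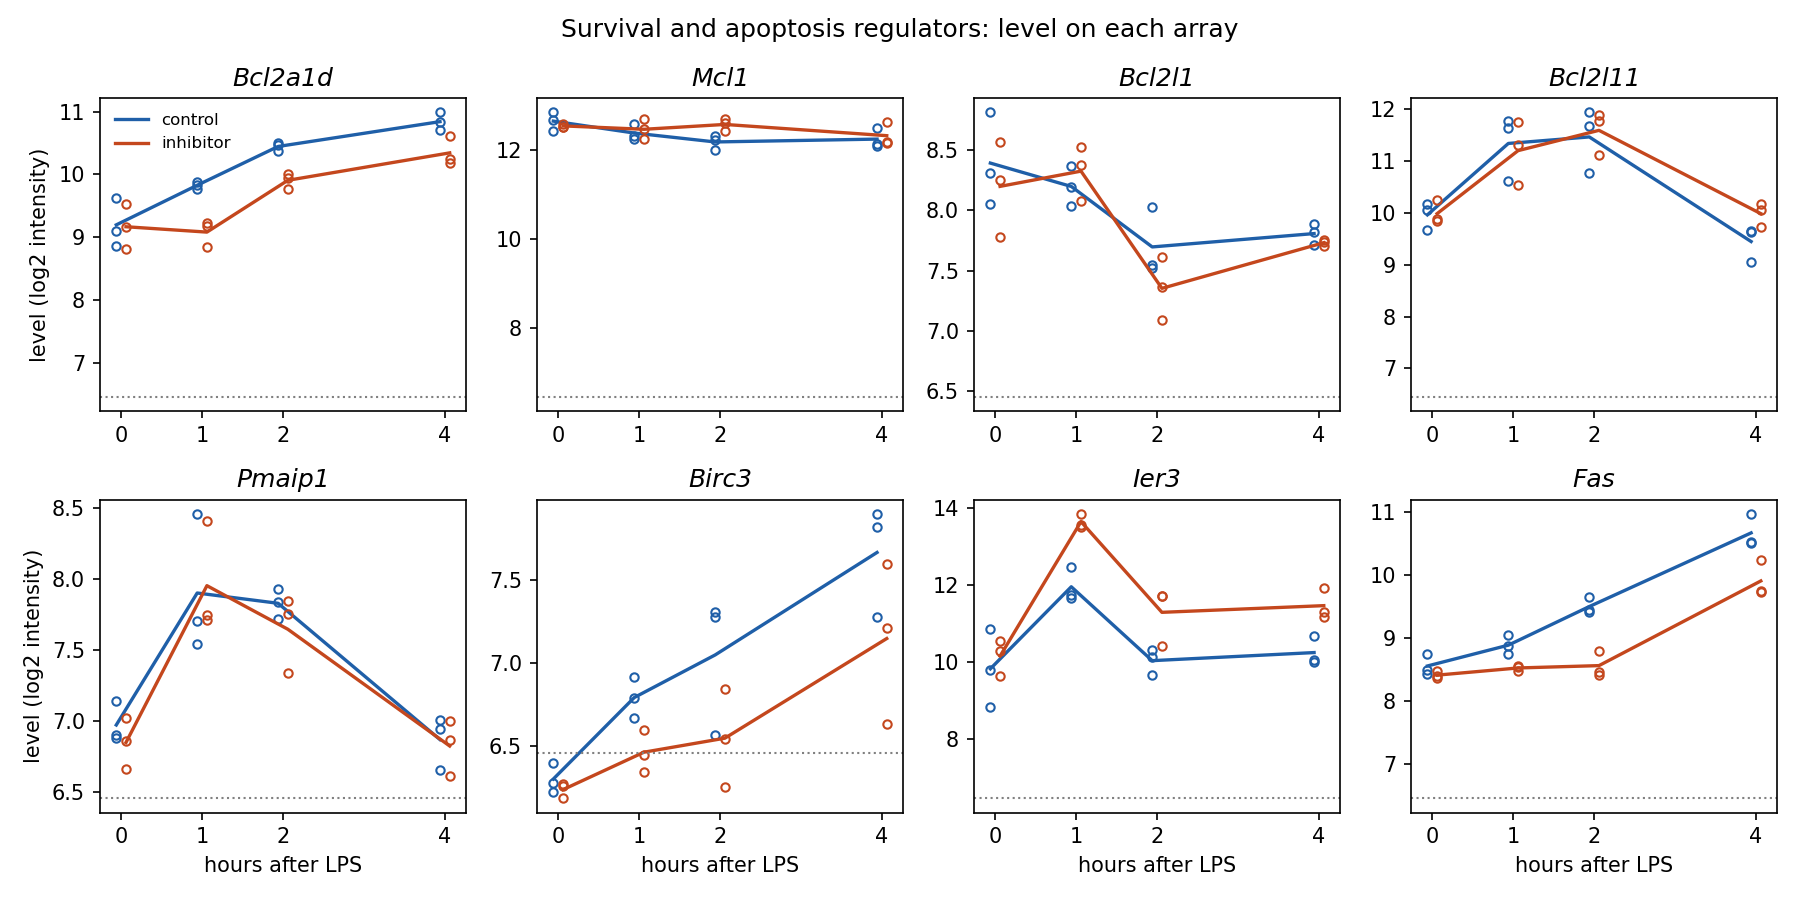
Level of each measured gene on each array (points, log2 intensity, 3 arrays a group) against hours after LPS, with lines through the means of control (blue) and inhibitor (orange-red) and the floor of 6.45 dotted; each panel has its own vertical range. Fas and the Bcl2a1d probe climb to 10.67 and 10.84 at 4 h in control cells, Bcl2l11 and Pmaip1 peak at 1 to 2 h, and Ier3 peaks at 1 h.

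Among the survival genes, the Bcl2a1d probe rose by 2 h of LPS in both treatments and was lower with the inhibitor at 1 and 4 h. In control cells it measured 8.86, 9.10 and 9.62 log2 units at 0 h in replicates 1, 2 and 3, then 9.87, 9.77 and 9.83 at 1 h. It measured 10.46, 10.37 and 10.49 at 2 h and 10.70, 10.99 and 10.83 at 4 h. Every later array was thus above all 0 h arrays. In inhibitor cells the values were 8.81, 9.16 and 9.53 at 0 h and 9.18, 9.22 and 8.84 at 1 h, within the 0 h range. They then reached 9.77, 9.998 and 9.95 at 2 h and 10.25, 10.17 and 10.60 at 4 h, above the 0 h arrays again.

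The control change of the Bcl2a1d probe from 0 h was 0.63 ± 0.18 at 1 h (limma adjusted p = 0.0562, 0.0173 with the replicate block), 1.25 ± 0.18 at 2 h (limma adjusted p = 2.03e-05) and 1.65 ± 0.18 at 4 h (limma adjusted p = 1.79e-07). Without 0 h control replicate 3, the 1 h change was 0.85 (limma adjusted p = 0.00647). That fit had no block and kept 1 h control replicate 3. In inhibitor cells the change was -0.09 ± 0.18 at 1 h (limma adjusted p = 0.965), 0.74 at 2 h (0.00509) and 1.18 at 4 h (limma adjusted p = 1.89e-05). The inhibitor arrays lay below every control array at 1, 2 and 4 h, and overlapped them at 0 h.

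The inhibitor difference of the Bcl2a1d probe was -0.75 ± 0.18 at 1 h (limma adjusted p = 0.0341), -0.54 ± 0.18 at 2 h (0.0735, or 0.0246 with the block) and -0.50 ± 0.18 at 4 h (limma adjusted p = 0.0469). The 1 h call was lost when any of its 6 arrays was left out (limma adjusted p = 0.0643 to 0.253), with centring on housekeeping genes (0.0867) and without the filter for dim probes (0.0538). The 4 h call was lost without any of the 6 arrays other than inhibitor replicate 3 (limma adjusted p = 0.0561 to 0.168), without replicate 1 of every group (0.0502), with a 95th percentile floor (0.0507), with no filter (0.0782) and with background subtraction (0.0708). Against the difference at 0 h, the 1 h difference was -0.72 ± 0.25 (limma adjusted p = 1).

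Mcl1, a short-lived survival protein, had the smallest range of group means of the 8 genes, 0.47 log2 units. Control arrays measured 12.85, 12.67 and 12.43 at 0 h, then 12.58, 12.25 and 12.32 at 1 h, 11.996, 12.23 and 12.31 at 2 h, and 12.50, 12.09 and 12.15 at 4 h. All 2 h arrays lay below the 0 h arrays, while those of 4 h overlapped them. The inhibitor arrays measured 12.52, 12.59 and 12.51 at 0 h, then 12.69, 12.24 and 12.47 at 1 h, 12.60, 12.42 and 12.70 at 2 h, and 12.63, 12.16 and 12.17 at 4 h.

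In control cells Mcl1 fell by 0.47 ± 0.15 at 2 h (limma adjusted p = 0.028) and by 0.40 ± 0.15 at 4 h (limma adjusted p = 0.0314), but the 4 h change was 0.22 (limma adjusted p = 0.337) when arrays were centred on housekeeping genes. The 2 h call was also lost with that centring (0.576), with cyclic loess (0.173), in a fit of only the 2 groups (0.0585), without replicate 1 of every group (0.103), and without 0 h replicate 1 (0.123), 0 h replicate 2 (0.0741) or 2 h replicate 1 (0.137). The 4 h call was lost with cyclic loess (0.611), with no filter (0.0518), in the fit of 2 groups (0.0605), and without 0 h replicate 1 (0.137), 0 h replicate 2 (0.0737), 4 h replicate 2 (0.122) or 4 h replicate 3 (0.0985). In inhibitor cells no change of Mcl1 from 0 h was called (-0.08, 0.03 and -0.22 at 1, 2 and 4 h), although leaving out replicate 1 of every group gave -0.38 at 4 h (limma adjusted p = 0.0142). At 2 h the inhibitor arrays all exceeded the control arrays, with a difference of 0.39 ± 0.15 (limma adjusted p = 0.147, or 0.0449 with the block).

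Bcl2l1, which encodes Bcl-xL, was lower at 2 h in both treatments. Its brightest probe measured 8.05, 8.31 and 8.81 at 0 h, then 8.03, 8.19 and 8.37 at 1 h, 7.55, 7.52 and 8.03 at 2 h, and 7.71, 7.89 and 7.82 at 4 h in control cells. The 2 h and 4 h control arrays lay below all 0 h arrays. Inhibitor-treated cells gave 7.78, 8.25 and 8.57 at 0 h, then 8.08, 8.37 and 8.52 at 1 h, 7.09, 7.36 and 7.61 at 2 h, and 7.70, 7.75 and 7.74 at 4 h. There too, 2 h and 4 h arrays were below all 0 h arrays.

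The fall of Bcl2l1 in control cells was -0.69 ± 0.20 at 2 h (limma adjusted p = 0.013) and -0.58 ± 0.20 at 4 h (limma adjusted p = 0.0186), and the 4 h change became 0.04 (limma adjusted p = 0.861) with housekeeping centring. In inhibitor cells it was -0.84 ± 0.20 at 2 h (limma adjusted p = 0.00466, or 0.0511 with housekeeping centring) and -0.47 ± 0.20 at 4 h (0.0614, or 0.0025 with the block). Without 0 h inhibitor replicate 1 the latter was -0.68 (limma adjusted p = 0.0103), and without replicate 1 of every group -0.66 (0.00639), but without 0 h inhibitor replicate 3 it was -0.28 (0.299). The control call at 2 h was lost with housekeeping centring (0.186), in the fit of 2 groups (0.0668), and without 2 h replicate 1 (0.062), 2 h replicate 2 (0.0557) or 0 h replicate 3 (0.101). The 4 h control call was lost without 4 h replicate 1 (0.06) or 0 h replicate 3 (0.138). No difference between treatments was called for Bcl2l1, with -0.19, 0.13, -0.34 and -0.08 ± 0.20 at 0, 1, 2 and 4 h.

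The other Bcl2l1 probes were not called at 2 h in control cells. The probe ILMN_2742557 had a control change of -0.09 ± 0.14 at 2 h (limma adjusted p = 0.686, fit over all kept probes) and -0.40 ± 0.14 at 4 h (limma adjusted p = 0.0221). Its group means correlated with those of the brightest probe at r = 0.71 over 8 groups that share their arrays. The remaining probe, ILMN_2647885, had control changes of -0.33 ± 0.15 at 2 h (limma adjusted p = 0.138) and -0.04 ± 0.15 at 4 h (0.84), neither called, and in inhibitor cells -0.57 at 2 h (0.0136) and -0.44 at 4 h (0.0263). The 4 h control fall of the brightest probe was thus called for 2 of the 3 probes, and the 2 h fall for 1. With the mean of all kept probes of a gene, the 2 h control change was -0.37 (limma adjusted p = 0.0561) and the 4 h inhibitor-cell change was -0.43 (limma adjusted p = 0.0155).

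Of the BH3-only genes, Pmaip1 and the brightest Bcl2l11 probe were higher at 1 and 2 h in both treatments. By 4 h Pmaip1 and the brightest Bcl2l11 probe were no longer called against 0 h, while 2 other Bcl2l11 probes still were. Bcl2l11, which encodes Bim, measured 10.16, 10.05 and 9.67 with its brightest probe in control cells at 0 h and 11.76, 10.62 and 11.63 at 1 h. It then measured 10.78, 11.67 and 11.94 at 2 h and 9.06, 9.64 and 9.64 at 4 h. The 1 h and 2 h arrays lay above all 0 h arrays and the 4 h arrays below them. With the inhibitor it measured 10.24, 9.84 and 9.87 at 0 h and 11.76, 10.53 and 11.30 at 1 h, followed by 11.11, 11.78 and 11.88 at 2 h and 9.72, 10.05 and 10.18 at 4 h. These showed the same rise, with 4 h arrays overlapping those of 0 h.

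The control change of Bcl2l11 was 1.38 ± 0.33 at 1 h (limma adjusted p = 0.021), 1.501 ± 0.33 at 2 h (limma adjusted p = 0.00196) and -0.51 ± 0.33 at 4 h (0.201). From 2 h to 4 h it fell by 2.02 ± 0.33 (limma adjusted p = 0.000116), where 28.2% of features were called. The changes in inhibitor cells were 1.21 at 1 h (limma adjusted p = 0.0488), 1.605 at 2 h (0.00154) and 0.00 at 4 h (1). The control 1 h call was lost in the fit of 2 groups (0.0816) and without 1 h replicate 1 (0.167), 1 h replicate 3 (0.127), 0 h replicate 2 (0.0598) or 0 h replicate 3 (0.114). The inhibitor-cell 1 h call was lost in 11 of 17 alternatives, among them leaving out any array of the comparison other than 1 h replicate 2 (0.0571 to 0.279). It was also lost with the mean of all kept probes (0.86, limma adjusted p = 0.0661). Between treatments Bcl2l11 was not called, with 0.02, -0.14, 0.13 and 0.54 ± 0.33 at 0, 1, 2 and 4 h. At 4 h all inhibitor arrays were nonetheless above the control arrays (limma adjusted p = 0.28), and without control replicate 1 the difference was 0.34 (0.617). That fit had no block and kept inhibitor replicate 1.

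The 4 probes of Bcl2l11 followed 2 time courses. ILMN_2590638 moved with the brightest probe (r = 0.98 over 8 group means) and returned to its 0 h level, with 7.83, 7.48 and 7.33 at 0 h and 7.49, 7.37 and 7.14 at 4 h in control cells. At 1 h it measured 9.09, 7.61 and 8.58 there, which overlapped the 0 h arrays. In inhibitor cells it measured 9.40, 7.59 and 8.50 at 1 h against 7.96, 7.29 and 7.50 at 0 h, which also overlapped. ILMN_1229255 rose from 6.71, 6.70 and 6.67 at 0 h to 9.05, 8.97 and 9.14 at 2 h and was still at 8.17, 8.40 and 8.35 at 4 h. That is a control change of 2.36 ± 0.24 at 2 h (limma adjusted p = 3.43e-07) and 1.61 ± 0.24 at 4 h (limma adjusted p = 1.39e-05), in a fit over all kept probes. Its 4 h arrays thus lay above all 0 h arrays, where those of the brightest probe lay below. At 1 h its arrays lay above all 0 h arrays of the same treatment, in control and in inhibitor cells.

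The remaining probe, ILMN_3078327, was below the floor on all 0 h arrays of both treatments and exceeded that level in control cells at 2 h by at least 1.95-fold (limma adjusted p = 3.28e-05) and at 4 h by at least 1.28-fold (0.00904). At 1 h it measured 7.06, 6.43 and 6.63 in control and 7.11, 6.36 and 6.66 in inhibitor cells, with replicate 2 below the floor in both. This probe moved with ILMN_1229255 (r = 0.99). In inhibitor cells ILMN_1229255 was 1.80 ± 0.24 above its 0 h level at 4 h (limma adjusted p = 5.34e-06). With the mean of all kept probes, the 4 h change of Bcl2l11 in inhibitor cells was 0.63 (limma adjusted p = 0.0419) in place of 0.00. No table used here tells which transcripts of Bcl2l11 each probe covers, and none of the 4 probes was called between treatments.

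**Figure D2:**
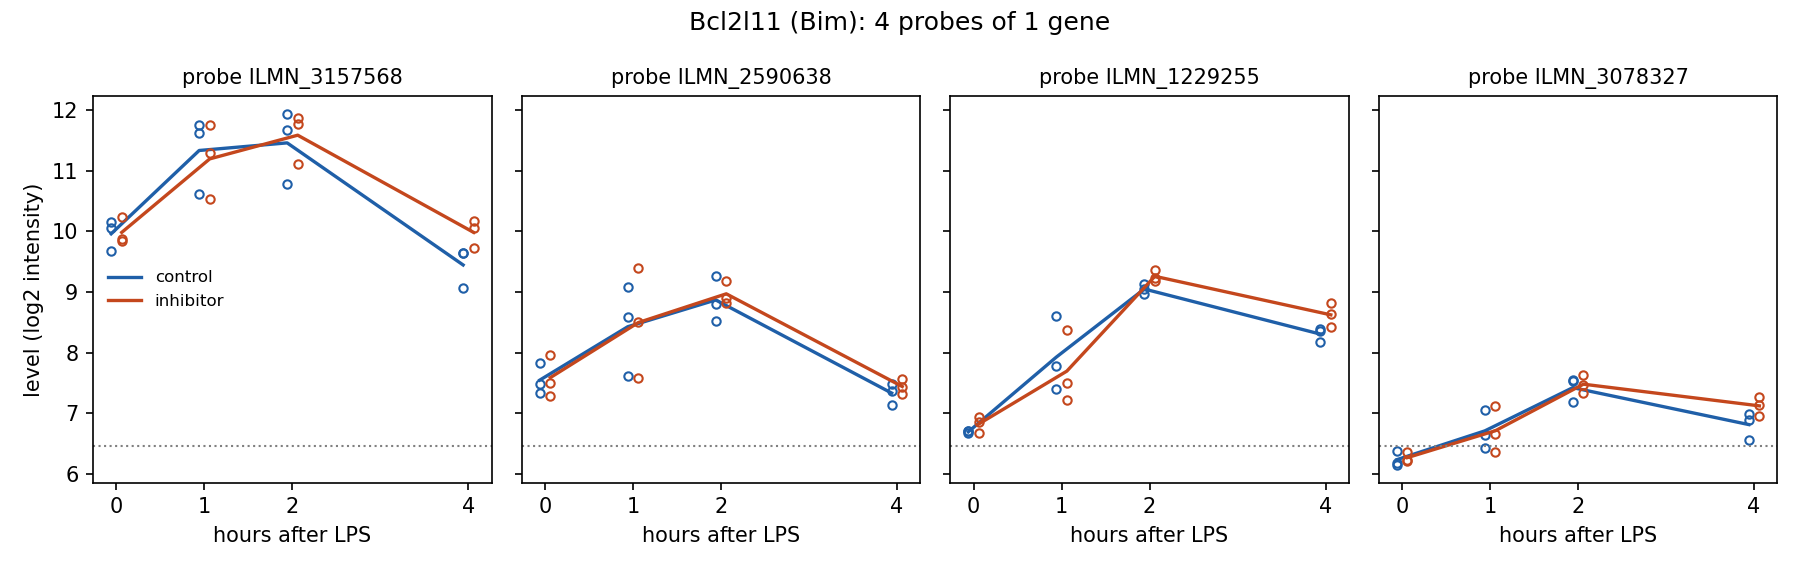
The 4 Bcl2l11 probes, 1 panel each: log2 intensity of each array (points) and group means (lines) against hours after LPS for control (blue) and inhibitor (orange-red), with the floor of 6.45 dotted; heights are not comparable between probes. The 2 panels at left come back to the 0 h level or below it by 4 h, while the 2 at right stay up, with ILMN_1229255 at 8.31 in control and 8.62 in inhibitor cells.

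Pmaip1, which encodes Noxa, measured 7.14, 6.90 and 6.88 at 0 h and 8.46, 7.54 and 7.70 at 1 h in control cells, then 7.72, 7.93 and 7.84 at 2 h and 7.003, 6.94 and 6.66 at 4 h. Inhibitor arrays measured 7.02, 6.66 and 6.86 at 0 h and 8.40, 7.71 and 7.74 at 1 h, then 7.75, 7.84 and 7.34 at 2 h and 6.998, 6.86 and 6.61 at 4 h. In both treatments the 1 h and 2 h arrays were above all 0 h arrays, and replicate 1 was the highest at 1 h.

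The change of Pmaip1 in control cells was 0.93 ± 0.21 at 1 h (limma adjusted p = 0.0124), 0.86 ± 0.21 at 2 h (limma adjusted p = 0.00413) and -0.10 at 4 h (0.697). With the inhibitor it was 1.10 at 1 h (limma adjusted p = 0.00287), 0.80 at 2 h (0.00988, or 0.0526 without 0 h inhibitor replicate 2) and -0.02 at 4 h (0.936). The differences between treatments were -0.12, 0.05, -0.18 and -0.04 ± 0.21 at 0, 1, 2 and 4 h, none called. The control 1 h call was lost in the fit of 2 groups (0.134) and without 1 h replicate 1 (0.126), 0 h replicate 2 (0.0597) or 0 h replicate 3 (0.0589). The other Pmaip1 probe gave control changes of 0.76 and 0.72 at 1 and 2 h, both called (0.0162 and 0.00466). Over the 8 group means, Bcl2l11 and Pmaip1 correlated at r = 0.93, a description over groups that share arrays and scaling.

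Birc3, encoding the inhibitor of apoptosis protein c-IAP2, crossed the floor after LPS. All 0 h arrays were below it, with 6.40, 6.22 and 6.27 in control and 6.27, 6.25 and 6.18 in inhibitor cells. Control arrays then measured 6.67, 6.79 and 6.92 at 1 h, 6.56, 7.30 and 7.28 at 2 h, and 7.28, 7.90 and 7.82 at 4 h. Each of these was above all 0 h arrays. Inhibitor arrays measured 6.34, 6.45 and 6.60 at 1 h, with only replicate 3 above the floor, then 6.25, 6.54 and 6.84 at 2 h and 6.63, 7.21 and 7.59 at 4 h.

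Against 0 h, the Birc3 level in control cells was higher by at least 1.51-fold at 2 h (fitted change 0.75 ± 0.22, limma adjusted p = 0.0137) and by at least 2.32-fold at 4 h (1.37 ± 0.22, limma adjusted p = 2.47e-05). The 2 h call was lost without 2 h replicate 2 (0.0667) or 2 h replicate 3 (0.069). It missed the threshold in inhibitor cells at 2 h (0.31 ± 0.22, limma adjusted p = 0.378, or 0.0161 without replicate 1 of every group) and exceeded its 0 h level by at least 1.61-fold at 4 h (0.91 ± 0.22, limma adjusted p = 0.0018). At 1 h the control change was 0.49 (limma adjusted p = 0.365), or 0.60 (0.0136) without replicate 1 of every group.

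The inhibitor difference of Birc3 was -0.33 at 1 h (limma adjusted p = 1), -0.50 at 2 h (0.211) and -0.52 ± 0.22 at 4 h (0.0926). With the replicate block these were called at 2 h (limma adjusted p = 0.0401) and 4 h (0.0154). The groups overlapped at 2 and 4 h without regard to replicate number. Without replicate 1 of every group, the differences were -0.60 (0.00794) and -0.46 (0.017). Without 4 h inhibitor replicate 1, the 4 h difference was only -0.26 (limma adjusted p = 0.424). That fit had no block and kept control replicate 1. In every same-numbered pair at 4 h, the inhibitor array was below the control array. Housekeeping centring gave -0.86 at 4 h (limma adjusted p = 0.000437), where it moved the median difference of all features by -0.34. Leaving out control replicate 1 or inhibitor replicate 3 at 4 h gave -0.71 (limma adjusted p = 0.0342) or -0.74 (0.0237). Both of these fits also had no block and kept the same-numbered array of the other treatment.

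Ier3, an early LPS response gene whose protein modulates NF-kB and Erk signalling, rose most at 1 h and reached higher levels in inhibitor cells. The 250 bases before its start site are shown because they hold a kappaB consensus match, in capitals, on the minus strand at -92 to -83 from the start site (chr17:35821463-35821712, plus strand, GRCm38.p6, RefSeq).
Ier3: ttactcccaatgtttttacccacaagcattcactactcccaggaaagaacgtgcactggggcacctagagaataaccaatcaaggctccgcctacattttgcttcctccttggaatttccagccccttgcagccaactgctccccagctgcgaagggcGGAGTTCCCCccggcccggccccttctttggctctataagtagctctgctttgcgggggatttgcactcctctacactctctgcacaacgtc
The kappaB consensus was found on either strand in 7.25% of 32851 such windows of 250 bases. Windows were searched for 9 members, all but Pmaip1, and 2 had a match (Ier3 and Bcl2l1, in 1 of its start sites). A match is a description of letters and not a binding site.

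In control cells Ier3 measured 8.83, 9.79 and 10.86 at 0 h and 11.66, 11.74 and 12.47 at 1 h. It then measured 9.66, 10.14 and 10.32 at 2 h and 10.003, 10.06 and 10.69 at 4 h, inside the wide 0 h range. The inhibitor arrays measured 9.64, 10.28 and 10.55 at 0 h, then 13.53, 13.58 and 13.86 at 1 h, 10.43, 11.73 and 11.73 at 2 h, and 11.17, 11.30 and 11.94 at 4 h. At 1, 2 and 4 h every inhibitor array was above every control array, and at 0 h they overlapped.

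The control change of Ier3 was 2.13 ± 0.41 at 1 h (limma adjusted p = 0.00286, or 0.0908 in a fit of the 2 groups), 0.21 ± 0.41 at 2 h (0.758) and 0.42 ± 0.41 at 4 h (0.399, or 1.05 with 0.0267 when centred on housekeeping genes). The change in inhibitor cells was 3.50 ± 0.41 at 1 h (limma adjusted p = 1.02e-05), 1.14 at 2 h (0.0599, or 0.000745 with the block) and 1.31 at 4 h (limma adjusted p = 0.0129). The 4 h call was lost without 0 h inhibitor replicate 1 (0.0647) or 4 h inhibitor replicate 3 (0.0648). Without 2 h inhibitor replicate 1, the lowest of its group, the 2 h change was 1.57 (limma adjusted p = 0.0135). That fit had no block and kept 0 h inhibitor replicate 1. From 1 h to 2 h Ier3 fell by 1.92 in control (limma adjusted p = 0.00317) and by 2.36 in inhibitor cells (limma adjusted p = 0.000667), with 13.2% and 10.6% of features called.

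The inhibitor difference of Ier3 was 1.69 ± 0.41 at 1 h (limma adjusted p = 0.0413), 1.26 ± 0.41 at 2 h (0.0719, or 0.000656 with the block) and 1.22 ± 0.41 at 4 h (limma adjusted p = 0.0354). At 0 h it was 0.33 ± 0.41 (limma adjusted p = 1). The 1 h call was lost without any of the 6 arrays other than control replicate 3 (0.0956 to 0.221), with no filter (0.0745), with a filter asking for all 24 arrays (0.051) and with background subtraction (0.066). The 4 h call was lost with housekeeping centring (0.88, limma adjusted p = 0.0944), cyclic loess (0.0547) and no filter (0.0658), and without control replicate 1 (0.118), control replicate 2 (0.103), inhibitor replicate 2 (0.0585) or inhibitor replicate 3 (0.155). Without 2 h inhibitor replicate 1, the 2 h difference was 1.69 (limma adjusted p = 0.0155), in a fit with no block that kept control replicate 1. Without replicate 1 of every group it was 1.502 (limma adjusted p = 0.00628). Against the 0 h difference, the 1 h difference was 1.36 ± 0.58 (limma adjusted p = 1).

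Fas, the death receptor that recruits Fadd and caspase-8, rose from 2 h on in control cells and was lower with the inhibitor at 2 and 4 h. The 250 bases before its start site (chr19:34290409-34290658, plus strand, GRCm38.p6, RefSeq) hold the AP-1 letters TGANTCA, in capitals, at -211 to -205 from the start site, and are shown because Fas kept its inhibitor calls in all 17 alternatives.
Fas: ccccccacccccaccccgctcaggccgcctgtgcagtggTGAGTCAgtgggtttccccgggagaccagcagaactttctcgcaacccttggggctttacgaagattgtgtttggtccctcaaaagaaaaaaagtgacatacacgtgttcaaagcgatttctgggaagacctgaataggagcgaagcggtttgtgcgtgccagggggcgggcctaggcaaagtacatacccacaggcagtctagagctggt
The pattern TGANTCA, with any base in the middle, was found on either strand in 6.75% of the 32851 windows. Among the members searched it was in those of Bcl2a1b and Bcl2a1d, as TGAATCA, and of Fas, as TGAGTCA. No kappaB consensus match was found in this Fas window, which says only that the letters are not in it.

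The brightest Fas probe measured 8.50, 8.43 and 8.75 at 0 h, then 8.87, 8.76 and 9.04 at 1 h, 9.45, 9.41 and 9.65 at 2 h, and 10.53, 10.52 and 10.98 at 4 h in control cells. The 2 h arrays lay above all 1 h arrays and those of 4 h above all 2 h arrays. With the inhibitor the arrays gave 8.40, 8.47 and 8.37 at 0 h, then 8.54, 8.48 and 8.56 at 1 h, 8.47, 8.42 and 8.80 at 2 h, and 9.73, 9.76 and 10.24 at 4 h. There the 2 h arrays overlapped those of 0 h, and the 1 h and 4 h arrays lay above them, those of 1 h by little.

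The control change of Fas was 0.33 ± 0.14 at 1 h (limma adjusted p = 0.36, or 0.0456 with the block), 0.94 ± 0.14 at 2 h (limma adjusted p = 5.24e-05) and 2.12 ± 0.14 at 4 h (limma adjusted p = 2.98e-10), the last a 4.33-fold rise. The change in inhibitor cells was 0.11 ± 0.14 at 1 h (0.913), 0.15 ± 0.14 at 2 h (limma adjusted p = 0.546) and 1.497 ± 0.14 at 4 h (limma adjusted p = 6.8e-08). From 2 h to 4 h Fas rose by 1.17 ± 0.14 in control (limma adjusted p = 4.75e-06) and by 1.35 ± 0.14 in inhibitor cells (limma adjusted p = 1.36e-06), where 28.2% and 29.9% of features were called.

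The inhibitor difference of Fas was -0.36 ± 0.14 at 1 h (limma adjusted p = 0.525, or 0.0499 with the block), -0.94 ± 0.14 at 2 h (limma adjusted p = 0.000244) and -0.76 ± 0.14 at 4 h (limma adjusted p = 0.000622). The inhibitor arrays were below every control array at these 3 times and overlapped them at 0 h, where the difference was -0.15 ± 0.14. Both later calls held in all 17 alternatives, with a largest adjusted p of 0.0133 at 2 h and 0.0212 at 4 h.

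Whether the Fas difference depended on LPS was tested against the difference at 0 h. For the brightest probe this was -0.79 ± 0.20 at 2 h (limma adjusted p = 0.0784) and -0.62 ± 0.20 at 4 h (0.0697), neither called, or 0.00223 and 0.00344 with the block. In the fit over all kept probes the Fas probe ILMN_2479290 gave -0.80 ± 0.19 at 2 h (limma adjusted p = 0.0489) and -0.88 ± 0.19 at 4 h (0.00702), where 0.799% and 7% of probes were called. That probe measured 8.08, 8.06 and 8.19 in control against 7.36, 7.43 and 7.23 in inhibitor cells at 2 h, and 9.29, 9.15 and 9.35 against 8.30, 8.44 and 8.51 at 4 h, with no overlap at either time. The third Fas probe lay between 5.92 and 6.35, below the floor on all arrays. Without 4 h inhibitor replicate 3, the 4 h value of the brightest probe was -0.78 (limma adjusted p = 0.0189). That fit had no block and kept 4 h control replicate 3.

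Over all 8 measured members, limma called 0 of these differences from 0 h at 1, 2 and 4 h, against 0.0244%, 0.878% and 8.02% of features. At an unadjusted p under 0.05 there were 2, 2 and 1. With the replicate block, Fas was the only member called at 2 h (3% of features) and at 4 h (17.4%).

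**Figure D3:**
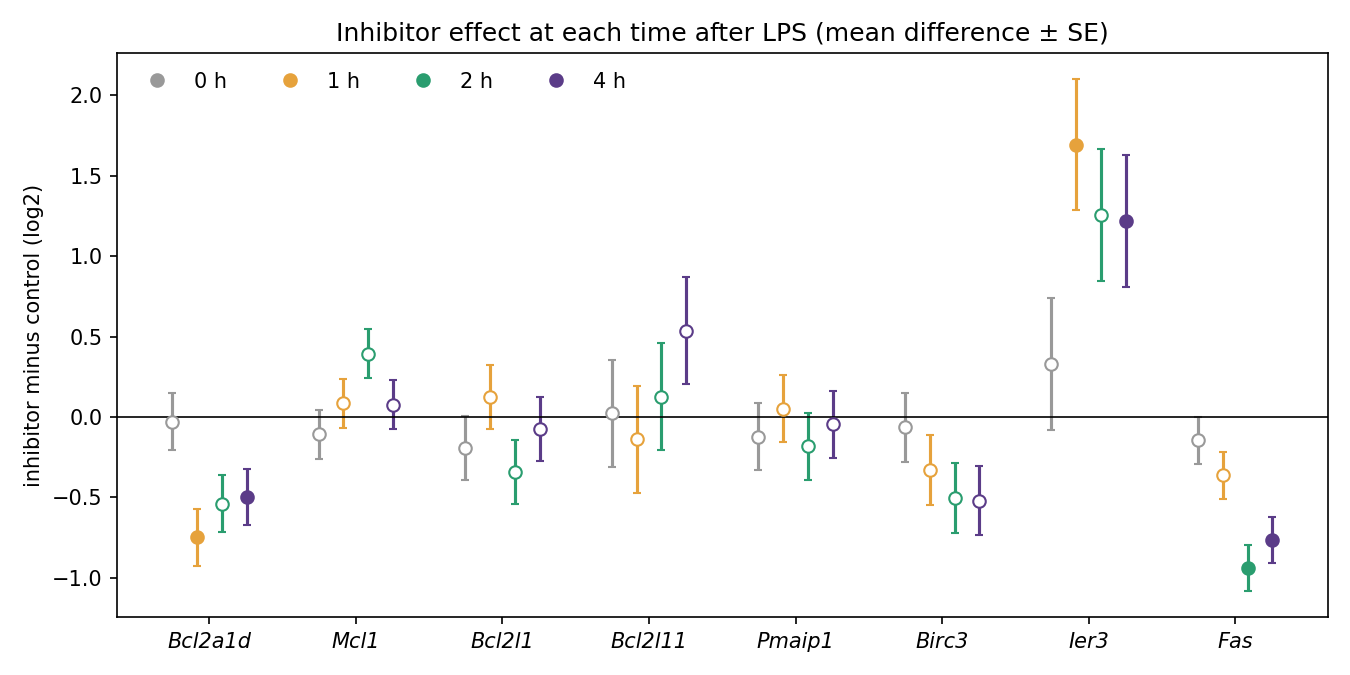
Inhibitor minus control on the log2 scale (mean difference ± SE, 3 arrays against 3) for each measured gene at 0, 1, 2 and 4 h after LPS, with filled symbols for calls at an adjusted p under 0.05. Ier3 lies above 0 at 1.69 and 1.22 when called, and the Bcl2a1d probe and Fas lie below it, Fas at -0.94 and -0.76.

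**Figure D4:**
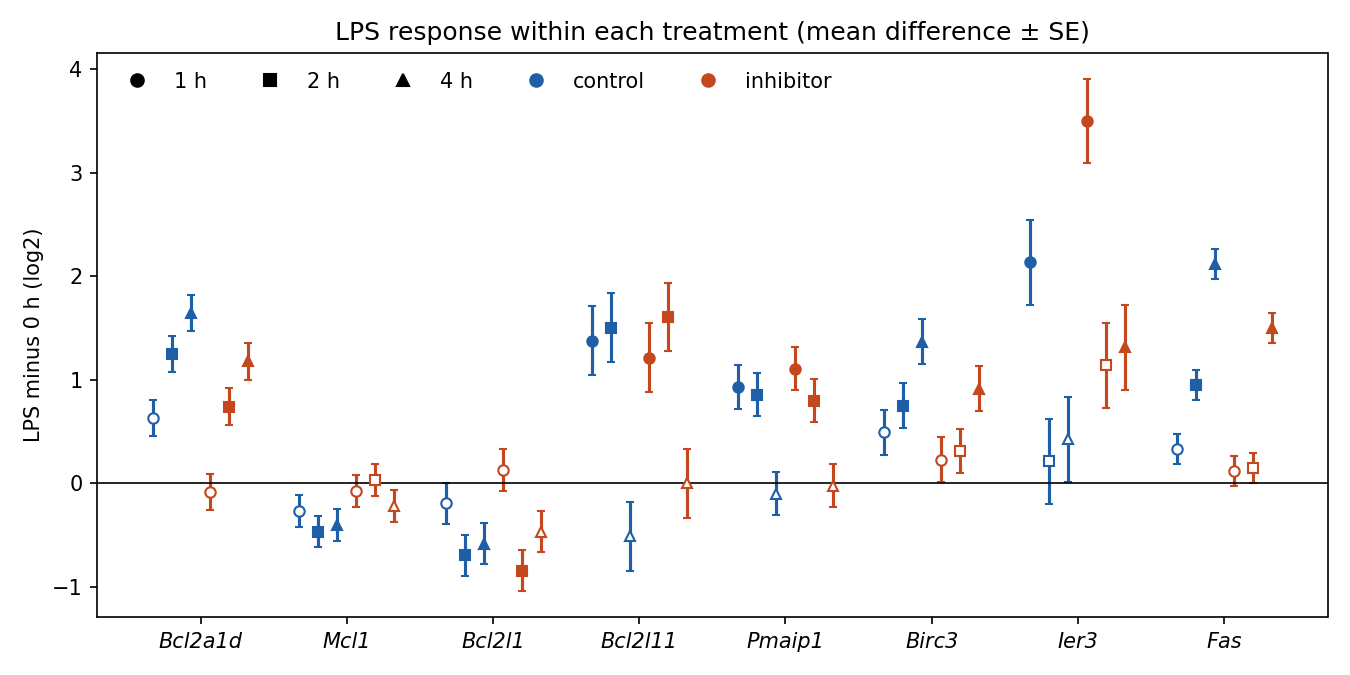
Change from 0 h on the log2 scale (mean difference ± SE) for each gene at 1 h (circles), 2 h (squares) and 4 h (triangles) in control (blue) and inhibitor cells (orange-red), with filled symbols for calls. Fas at 2 h is 0.94 in control and 0.15 in inhibitor cells. Bcl2l11 at 4 h is -0.51 in control and 0.00 in inhibitor cells, neither called.

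The deposited arrays share nearly the same ranked values, so every direction is relative to the other probes of an array. Centring on 7 measured housekeeping genes moved the median change of all features in control cells by 0.14, 0.30 and 0.63 at 1, 2 and 4 h, and that between treatments by -0.34 at 4 h. The share of rises among calls went from 66.9%, 39.7% and 37.7% to 94.3%, 86.9% and 92.2% for LPS, and from 55.2% to 6.71% between treatments at 4 h. Under cyclic loess the share for LPS at 4 h was 53.4%. Of the member directions called above, those of Mcl1 and Bcl2l1 at 4 h in control cells turned with housekeeping centring. The centring genes moved too. In control cells at 4 h of LPS, 3 of the 7 were called lower, where 32.7% of features were. Their median change was -0.41, beside -0.14 over all features. Between treatments at 4 h, 1 was called higher, where 12.6% of features were, with a median of 0.25 beside 0.04. What this did to the turned directions was not tested.

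By pattern over the 8 group means, the named features nearest to the Bcl2a1d probe were Bcl2a1c (r = 0.998) and Traf1 (r = 0.994). Those nearest to Birc3 were Leo1 (r = 0.99) and Hipk1 (r = 0.98), and those nearest to Fas were Rap2c and Myd88 (both r = 0.99). Bcl2l11 was nearest to Abcb4 and Dnajc3 (both r = 0.97), and Pmaip1 to Ndel1 and Irs2 (both r = 0.96). Ier3 was nearest to Zfp36 (r = 0.95) and Tgif1 (r = 0.93), Mcl1 to Ear10 (r = 0.96) and Abca3 (r = 0.95), and Bcl2l1 to Fam53b (r = 0.98) and Ears2 (r = 0.97). For Fas, 464 of 7576 named features exceeded r = 0.9, for Ier3 only 7. Among the members, Birc3 and Fas correlated at r = 0.98 and the Bcl2a1d probe and Birc3 at r = 0.94. These points share arrays and scaling.

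Of 66 other apoptosis genes in 6 lists, 56 had a probe and 42 were measured. Between treatments, limma called 0 at 0 h (0 at an unadjusted p under 0.05), 2 at 1 h, 7 at 2 h and 10 at 4 h, all lower but 1 at 4 h, beside the 0.158%, 1.3%, 6.94% and 22.8% of all features. With the replicate block, added after seeing the data, the counts were 0, 3, 8 and 14, with 4 higher at 4 h, where 0.28%, 2.52%, 14.1% and 35% of features were called. The median differences over the 42 genes were -0.02, 0.02, -0.07 and -0.00 at 0, 1, 2 and 4 h. In control cells, LPS called 1 higher and 2 lower at 1 h, 4 and 8 at 2 h, and 15 and 12 at 4 h, where 3.21%, 25.2% and 52.6% of all features were called. With the block, 2 higher and 3 lower were called at 1 h (6.31% of features), 11 higher and 10 lower at 2 h (39%), and 17 higher and 16 lower at 4 h (63.8%).

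Among the other survival genes, 3 were measured. Bcl2a1c, another A1 copy, was lower with the inhibitor at 1, 2 and 4 h by log2 values of -0.75, -0.69 and -0.64 (limma adjusted p = 0.0272, 0.0164 and 0.00983), each ± 0.17. Its probe and that of Bcl2a1d may bind each other's copies and are not independent. Bcl2l2, which encodes Bcl-w, was lower by -0.63 ± 0.15 at 2 h (0.0107) and -0.70 ± 0.15 at 4 h (0.00169). Of 9 other BH3-only and Bcl2-interacting genes, only Bbc3, the p53 target Puma, was called between treatments, at -1.11 ± 0.30 at 2 h (0.0292), where 6.94% of features were. Of the 2 measured pore formers, Bak1 and Bok, limma called 0 at any time, and 0 at an unadjusted p under 0.05.

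In the death receptor list, 14 genes were measured, with 1 lower at 1 h, 2 lower at 2 h, and 1 higher and 5 lower at 4 h. Of all features, 1.3%, 6.94% and 22.8% were called at these times, at 4 h 12.6% higher and 10.2% lower. Traf1, an adaptor that binds c-IAP proteins, was lower at 1, 2 and 4 h by -1.32, -1.62 and -1.16 ± 0.22 (limma adjusted p = 0.00171, 6.03e-05 and 0.000577). Control cells raised it by 4.12 ± 0.22 at 4 h (limma adjusted p = 7.78e-12). Daxx, a Fas-binding protein and histone chaperone, was lower at 2 h (-1.34 ± 0.31, limma adjusted p = 0.0101) with overlapping arrays. Tnfsf10, the death ligand Trail, and Casp8, the initiator caspase of this route, were lower at 4 h (-1.15 ± 0.16 with 3.17e-05, and -0.73 ± 0.16 with 0.00186). The 3 remaining calls, all at 4 h, were Tnfrsf1a, a TNF receptor, at -0.67 ± 0.15 (limma adjusted p = 0.0026), Mlkl, the effector of necroptosis, at -0.66 ± 0.17 (0.00654), and Faim, a Fas apoptosis inhibitor, which was higher at 0.38 ± 0.10 (0.00552).

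Among 7 measured inhibitor of apoptosis genes and antagonists, Birc2, the c-IAP1 gene, was lower at 2 h (-0.65 ± 0.13, limma adjusted p = 0.00208) and Htra2, a mitochondrial protease that antagonises them, at 4 h (-0.87 ± 0.13, limma adjusted p = 4.66e-05). Apaf1, the scaffold of the apoptosome, was lower at 2 h and 4 h (-0.56 and -0.53 ± 0.12, limma adjusted p = 0.00447 and 0.00226). It was the only gene called between treatments among 7 of its list, where 6.94% and 22.8% of features were called at 2 h and 4 h. Apaf1 rose by 0.97 ± 0.12 in control cells by 4 h (limma adjusted p = 9.08e-07).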

How the data were processed

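Transcript levels were analysed from the authors' deposited values, 1 per probe and array for 25697 probes on 24 Illumina arrays. The deposited values run from 5.354 to 15.172 and were read as log2 intensities, since no header states their scale. The sources used here do not say whether background was subtracted. Their ranked values differ by at most 0.004 at 99% of ranks, which is what quantile normalization gives. Limma is the tool named in the submitters' processing notes, without a version. A table of non-normalized signals was not used, since no label pairs its 72 value columns with samples.

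Probes were named from the platform annotation, updated through a RefSeq table of GRCm38.p6, which changed 0 symbols. The 10891 probes that exceeded the floor in every array of 1 or more groups gave 8203 features, each gene by its brightest kept probe. Limma 3.58.1 under R 4.3.3 fitted the 8 group means (lmFit, eBayes, 16 residual degrees of freedom, median residual SD 0.168), two-sided, with Benjamini-Hochberg adjustment within each contrast. A fold against a group wholly below the floor is a bound, written "at least". Folds of dim genes are understated, and array number limits precision. On simulated data of 8203 features for the inhibitor difference at 4 h, the fit recovered 48% of features given a change of 0.5, 94% given 1 and 99.3% given 2, with 3.76% false among its calls. The simulated arrays had independent noise, no shift shared by replicate number and fewer changed features than were called here. These shares hold for that setting and may differ on the real arrays.

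Groups came from the sample titles. Arrays of one group correlated at 0.986 to 0.996 and 0 pairs were identical. The replicate numbers pair samples across groups by the data: in all 84 same-numbered pairs, deviations from the group means correlated above 0.1 (0.106 to 0.847). Between control and inhibitor arrays of the same time they correlated at 0.563 to 0.847. The main fit does not use this pairing, while the fit with the replicate block does. No label says what a number shares.

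Members, gene lists and settings were chosen with earlier results of these data known. All members were named, with up to 4 called genes of each other list (Tnfrsf1a, Mlkl and Faim were added after their values were seen) and the 2 nearest features of each member. Alternatives were the replicate block, housekeeping centring, cyclic loess, other floors, probe averaging, subtraction of the receptor probes' median, fits of only the groups compared, array weights and left-out arrays.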

Additional observations from a re-analysis of the deposited data

Results flagged for a closer look

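The Fas probe ILMN_2479290, the dimmer of its 2 probes above the floor, was singled out because the inhibitor difference itself changed after LPS in a test of that change. Relative to the difference at 0 h, it was -0.80 ± 0.19 at 2 h (limma adjusted p = 0.0489) and -0.88 ± 0.19 at 4 h (limma adjusted p = 0.00702) in log2 units, in the fit over all kept probes. At 0 h its arrays measured 7.33, 7.18 and 7.58 in control and 7.39, 7.24 and 7.56 in inhibitor cells, which overlap. The brightest Fas probe, with -0.79 and -0.62, had the same direction and was not called. What the 2 probes cover was not tested.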

How the results depend on the processing

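Of 2439 member values recomputed under an alternative, 2266 stayed on their side of the threshold, and 93 of these, called in neither fit, changed sign. Another 98 lost a call, 72 gained a call and 3 that were called in either fit turned. These 3 were Mcl1 (0.22) and Bcl2l1 (0.044) at 4 h of LPS in control cells with housekeeping centring, and Bcl2l11 at 4 h in inhibitor cells (0.63) with the mean of all kept probes. The largest uncalled value of opposite sign was Pmaip1 at 4 h of LPS in control cells, 0.53 with housekeeping centring in place of -0.10. Counts of members called moved as follows. For the replicate block, the shares of all features called are given with the results above. For the other settings they are not given, so those counts are not set against a background.

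With the replicate block, counts became 5 for the inhibitor at 2 h, 5 for control LPS at 1 h, and 1 for the difference from 0 h at 2 h and at 4 h. Array weights gave 5, 6, 1 and 1 for the same. The block also added the calls given beside the results and 4 between neighbouring times: Bcl2l1 at 2 h against 1 h in control cells (-0.50, adjusted p = 0.00449) and at 4 h against 2 h in inhibitor cells (0.38, 0.0152), and the Bcl2a1d probe at 4 h against 2 h (0.40 with 0.0478 in control and 0.44 with 0.0288 in inhibitor cells). It changed no other call.

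For the inhibitor at 1 h the count was 1 with housekeeping centring, with all 24 arrays above the floor and with background subtraction. It was 0 with no filter, where limma had 3 at an unadjusted p under 0.05. At 2 h it was 2 with housekeeping centring, cyclic loess and fits of only the groups compared. At 4 h it was 1 with no filter. For control LPS at 1 h it was 0 in the fit of only its groups, with 6 at an unadjusted p under 0.05. The difference from 0 h had 1 call at 2 h and at 4 h with probe averaging, and at 4 h 2 with housekeeping centring and 1 with cyclic loess. All of these were lower. Housekeeping centring moved the median of this 4 h difference over all features by -0.34, and only 4.36% of the features called with it were higher.

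Leaving out arrays gave, for the inhibitor, 0 to 0 calls at 0 h, 0 to 2 at 1 h, 1 to 3 at 2 h and 1 to 3 at 4 h. For control LPS it gave 1 to 4, 5 to 6 and 4 to 5 at 1, 2 and 4 h, and for inhibitor-cell LPS 2 to 3, 3 to 6 and 3 to 6. Between neighbouring times it gave 2 to 4 and 3 to 4 in control and 3 to 4 and 3 to 5 in inhibitor cells. For the difference from 0 h it gave 0 to 0, 0 to 0 and 0 to 1. The cause of these shifts was not tested. Birc3, Cflar and the dim probes lie near or below the floor, which limits their folds.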
